A study of Arabidopsis thaliana with 8 samples.

Results

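The 37 loci described here are genes of the shoot epidermis and its cuticle in Arabidopsis thaliana, chosen by locus for epidermal identity, wax synthesis, cutin synthesis, lipid transport and regulation of the cuticle. Of these, 36 were in the count tables of 32833 loci, and 1, AT1G00400, was not found there or in the annotation and is not analysed here. All 36 passed the filter on low counts, among 21202 genes tested, with 22 to 10218 counts per gene and library. They comprise 4 genes of identity, 13 of wax, 11 of cutin, 4 of transport and 4 regulators. Names such as FDH, CER6, CER5, MAH1, CER8, DCR and LTP1 are those of the cuticle field, where the annotation gives KCS10, KCS6, ABCG12, CYP96A15, LACS1, PEL3 and LP1.

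Floral stems of accession Col-0, grown in long days, gave mRNA sequencing libraries in 4 groups of 2 biological replicates. These were msh1 TRAP (msh1 plants, RNA on tagged ribosomes), WT TRAP (wild type, RNA on tagged ribosomes), msh1 Total and WT Total (whole stem RNA of each genotype). TRAP, translating ribosome affinity purification, recovers mRNA bound to ribosomes that carry an epitope-tagged protein, here FLAG::RPL18 driven by the MSH1 promoter, so that these libraries are meant to hold RNA of cells using that promoter. The labels do not name the msh1 allele, do not say whether a TRAP and a Total library came from the same plants, and do not say whether the Total plants carried the construct. MSH1 encodes an organelle-targeted MutS homologue. Its transcript stood at 36.3 and 22.5 CPM (msh1 TRAP), 12.3 and 14.0 CPM (WT TRAP), 27.9 and 30.8 CPM (msh1 Total) and 9.27 and 9.61 CPM (WT Total), higher in the libraries labelled msh1, which does not test the genotype, so directions below refer to the labels. Between 7568728 and 13611280 reads were counted on genes in a library. CPM is the read count scaled to a common library size with TMM factors, and n = 2 per group throughout.

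The epidermis is the outermost cell layer of the shoot, and the homeodomain proteins ATML1 and PDF2 maintain its identity. Its cells build the cuticle, a polyester of hydroxy fatty acids named cutin that is embedded in and covered by waxes. Waxes derive from very-long-chain fatty acids made by the elongase complex in the endoplasmic reticulum, which an alkane-forming branch and an alcohol-forming branch then modify. In stems of Arabidopsis the alkane branch prevails, and its products give the stem its whitish bloom.

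The upstream sequences are shown because ATML1 and PDF2 bind the L1 box, whose letters were searched as TAAATGCA and TAAATGTA on both strands in the 250 bases before each annotated gene start (RefSeq, TAIR10.1). Of 36 members, 3 held it (8.33%), against 896 of 19899 protein-coding genes tested (4.5%). These were FDH, a 3-ketoacyl-CoA synthase that keeps organs from fusing, ABCG11, an exporter of wax and cutin precursors, and MYB96, an activator of wax genes. The letters began 54 bases upstream of the FDH start, 82 and 47 bases upstream of ABCG11, and 24 bases upstream of MYB96, each time on the strand of the gene. The windows, written 5′ to 3′ on the strand of the gene with L1 box letters in capitals, are chr2:11173279-11173528 (minus strand) for FDH, chr1:6142152-6142401 (plus strand) for ABCG11 and chr5:25081142-25081391 (minus strand) for MYB96.
FDH: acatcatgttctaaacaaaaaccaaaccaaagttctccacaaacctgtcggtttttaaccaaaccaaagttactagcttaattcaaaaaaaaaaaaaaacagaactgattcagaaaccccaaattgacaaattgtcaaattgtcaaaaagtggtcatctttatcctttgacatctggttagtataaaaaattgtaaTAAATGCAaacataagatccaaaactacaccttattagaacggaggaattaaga
ABCG11: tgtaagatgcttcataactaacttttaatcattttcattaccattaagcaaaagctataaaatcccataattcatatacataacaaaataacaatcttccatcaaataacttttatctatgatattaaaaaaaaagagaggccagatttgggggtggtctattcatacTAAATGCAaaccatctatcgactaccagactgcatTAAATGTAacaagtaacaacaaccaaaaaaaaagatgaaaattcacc
MYB96: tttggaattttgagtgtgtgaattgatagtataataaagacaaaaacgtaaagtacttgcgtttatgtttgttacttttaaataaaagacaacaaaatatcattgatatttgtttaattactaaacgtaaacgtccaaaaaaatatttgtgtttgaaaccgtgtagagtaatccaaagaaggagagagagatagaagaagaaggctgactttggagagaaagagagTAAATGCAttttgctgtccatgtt
A match is a description of letters and not of a bound site. Sequence outside the 250 bases was not searched. Members without a match, ATML1 and PDF1 among them, may therefore hold the box elsewhere. The 3 genes did not behave alike in the libraries, since FDH and ABCG11 fell in msh1 TRAP against both msh1 Total and WT TRAP, whereas MYB96 passed the test in no comparison.

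Most of these genes were lower in msh1 TRAP than in msh1 Total or in WT TRAP, and few passed the test between the other groups. Against msh1 Total, 28 of 36 fell in msh1 TRAP and 1 rose, where 12.1% of all genes tested were lower and 14.1% higher, 26.2% in either direction (edgeR quasi-likelihood test, adjusted p under 0.05). The median log2 fold change of the 36 was −0.99, that of all genes −0.03. By role, all 13 wax genes and all 11 cutin genes fell, as did 3 of 4 identity genes, 1 of 4 transport genes and 0 of 4 regulators. Pooled RNA cannot tell a smaller share of epidermal cells among tagged cells from less ribosome-bound RNA of these genes per tagged cell. A difference between the subsets was not tested. The members were chosen with earlier results of these data known, so the shares over all genes stand beside their counts as a description.

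**Figure D1:**
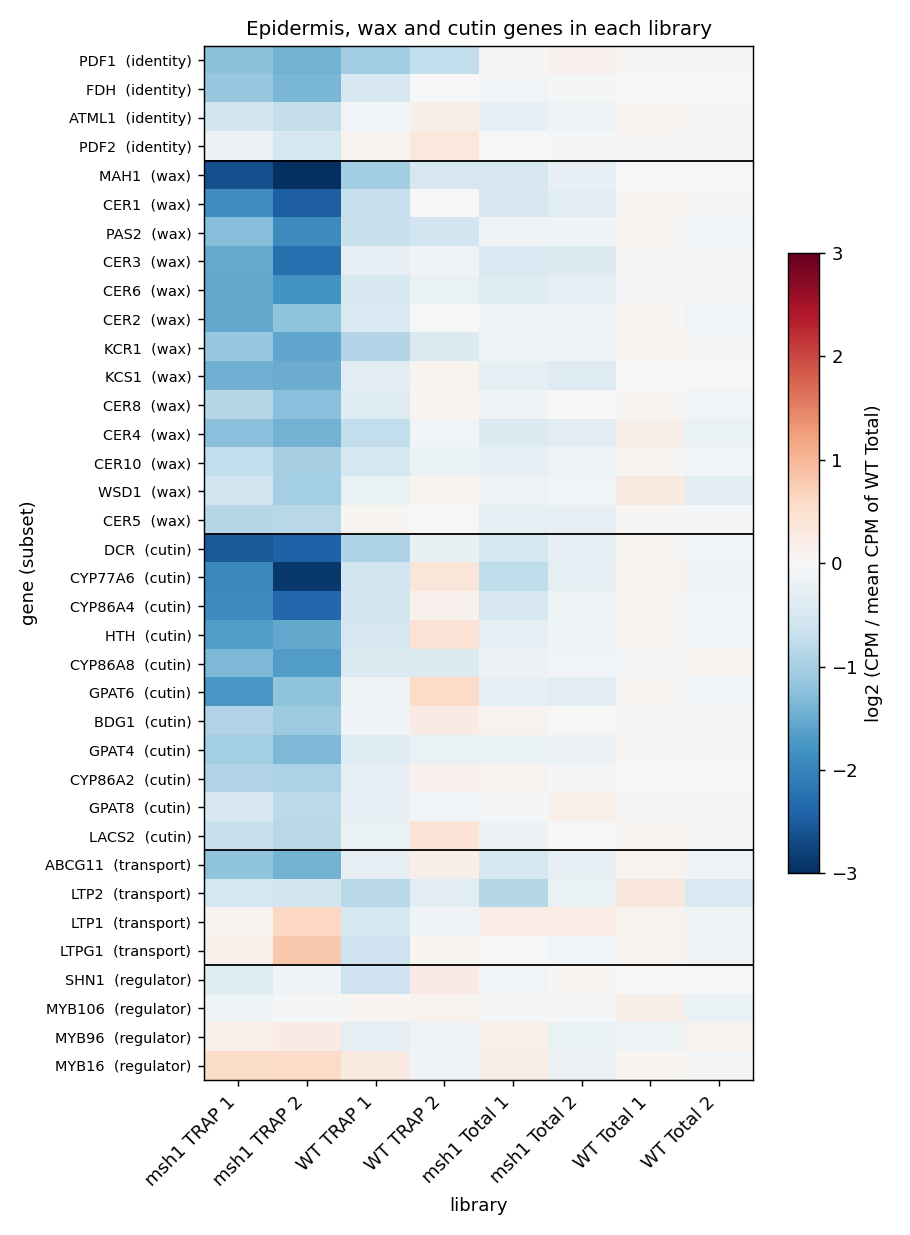
Each row is a gene, grouped by subset, and each column a library; colour gives log2 of the CPM over the mean CPM of WT Total, with the scale ending at 3 in either direction. The 2 msh1 TRAP columns are the darkest blue over wax and cutin rows, where MAH1 had 51.1 and 33.6 CPM in msh1 TRAP and a mean of 316 CPM in WT Total.

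Among the identity genes, PDF1 (AT2G42840), a proline-rich cell wall protein gene of the outer cell layer, stood at 14.9 and 13.2 CPM (msh1 TRAP), 17.2 and 21.0 CPM (WT TRAP), 36.3 and 38.5 CPM (msh1 Total) and 35.9 and 34.5 CPM (WT Total). Both TRAP groups lay below both Total groups. It fell in msh1 TRAP against msh1 Total, with a log2 fold change of −1.41 ± 0.16 (± SE here and below, edgeR adjusted p = 0.000258), and it was the 1 member called in WT TRAP against WT Total, at −0.88 ± 0.16 (edgeR adjusted p = 0.00847). FDH had 114 and 97.1 CPM (msh1 TRAP), 179 and 247 CPM (WT TRAP), 237 and 241 CPM (msh1 Total) and 253 and 249 CPM (WT Total). The msh1 TRAP libraries were the lowest for FDH and overlapped no other group, at −1.18 ± 0.18 against msh1 Total (edgeR adjusted p = 0.000846). ATML1 and PDF2, the regulators of the layer's identity, changed least of the 4 against msh1 Total. ATML1 had 46.5 and 41.6 CPM (msh1 TRAP), 64.5 and 77.7 CPM (WT TRAP), 57.7 and 62.2 CPM (msh1 Total) and 71.5 and 65.2 CPM (WT Total). PDF2 had 87.6 and 69.2 CPM (msh1 TRAP), 105 and 123 CPM (WT TRAP), 98.2 and 95.9 CPM (msh1 Total) and 102 and 97.6 CPM (WT Total). Against msh1 Total, ATML1 was at −0.45 ± 0.15 (edgeR adjusted p = 0.0486), a call at the threshold, and PDF2 did not pass, at −0.31 ± 0.16 (edgeR adjusted p = 0.171). With a trend on transcript length removed ATML1 came to −0.08 against msh1 Total (edgeR adjusted p = 0.716, where the adjusted p over all other settings and left-out libraries ran between 0.0297 and 0.242).

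The wax genes that fell covered every step of the pathway in the list. MAH1 (AT1G57750, chr1:21383812-21385709, minus strand), the cytochrome P450 that turns alkanes into secondary alcohols and ketones, stood at 51.1 and 33.6 CPM (msh1 TRAP), 153 and 223 CPM (WT TRAP), 223 and 267 CPM (msh1 Total) and 321 and 312 CPM (WT Total). The 2 msh1 TRAP libraries lay far below the rest, and MAH1 had the largest change of the 36 genes in msh1 TRAP against msh1 Total, at −2.54 ± 0.23 (5.80-fold lower, edgeR adjusted p = 6.25e-05). CER1 (AT1G02205), which forms alkanes together with CER3, had 128 and 83.5 CPM (msh1 TRAP), 290.2 and 459 CPM (WT TRAP), 331 and 373 CPM (msh1 Total) and 485 and 447 CPM (WT Total). Against msh1 Total, CER1 was at −1.74 ± 0.24 (edgeR adjusted p = 0.000582), and CER3 was at −1.40 ± 0.21. Of the alcohol branch, the fatty acyl-CoA reductase gene CER4 was at −0.96 ± 0.21 and the wax ester synthase gene WSD1 at −0.66 ± 0.22.

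All members of the elongase in the list fell as well. PAS2 (AT5G10480), the 3-hydroxyacyl-CoA dehydratase, had 23.7 and 15.2 CPM (msh1 TRAP), 35.7 and 38.5 CPM (WT TRAP), 53.0 and 52.1 CPM (msh1 Total) and 60.2 and 53.9 CPM (WT Total), and was at −1.44 ± 0.19 in msh1 TRAP against msh1 Total (edgeR adjusted p = 0.000485). The log2 fold change was −1.22 ± 0.19 for the ketoacyl reductase KCR1 and −0.66 ± 0.16 for the enoyl reductase CER10. Of the condensing enzymes, CER6, with the highest level per transcript length among the wax genes, averaged 59.2 CPM per kb in msh1 TRAP, 149 CPM per kb in WT TRAP, 150.0 CPM per kb in msh1 Total and 187 CPM per kb in WT Total. Library by library, CER6 had 169 and 140.4 CPM (msh1 TRAP), 349 and 427 CPM (WT TRAP), 374 and 409 CPM (msh1 Total) and 479 and 498 CPM (WT Total). CER6 was at −1.34 ± 0.17 (edgeR adjusted p = 0.000372), KCS1 at −1.11 ± 0.17 and CER2, which works with CER6 on the longest chains, at −1.23 ± 0.18. An antisense locus with 0.357 times the counts of CER2 overlaps 316 of its bases, where reads cannot be told apart without strand. CER8, an acyl-CoA synthetase, was at −0.99 ± 0.19 and CER5, a wax exporter of the plasma membrane, at −0.58 ± 0.14, the smallest change of the wax genes.

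Cutin genes gave the same direction throughout. DCR (AT5G23940), an acyltransferase required for cutin, had 27.8 and 29.6 CPM (msh1 TRAP), 84.8 and 137 CPM (WT TRAP), 110.3 and 132 CPM (msh1 Total) and 168 and 152 CPM (WT Total). Its 2 msh1 TRAP values were close together and below every other library, and DCR was at −2.08 ± 0.22 against msh1 Total (4.22-fold lower, edgeR adjusted p = 0.000132). Averaged over all 8 libraries DCR had the highest level per transcript length among the cutin genes, but within msh1 TRAP its 14.7 CPM per kb stood below CYP86A2 (23.6 CPM per kb), HTH (15.5 CPM per kb) and GPAT4 (14.9 CPM per kb), against 62.1 CPM per kb of DCR in msh1 Total. CYP77A6 (AT3G10570), which hydroxylates the acyl chain in mid-chain position, stood at 12.1 and 6.24 CPM (msh1 TRAP), 31.2 and 59.8 CPM (WT TRAP), 27.2 and 38.2 CPM (msh1 Total) and 49.9 and 43.1 CPM (WT Total). CYP86A4, which hydroxylates the chain end, stood at 8.41 and 6.12 CPM (msh1 TRAP), 21.2 and 34.3 CPM (WT TRAP), 22.0 and 28.2 CPM (msh1 Total) and 33.0 and 29.4 CPM (WT Total). They were at −1.84 ± 0.33 (edgeR adjusted p = 0.00241) and −1.79 ± 0.26 (edgeR adjusted p = 0.000712) against msh1 Total. In proportion to its level, CYP77A6 spread more within each group than DCR, and still no msh1 TRAP library overlapped another group.

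The other cutin genes fell by log2 fold changes between 0.66 and 1.40 in size. The chain-end hydroxylases CYP86A8 and CYP86A2 were at −1.37 ± 0.18 and −0.95 ± 0.16, although an antisense locus overlaps 782 bases of CYP86A2 with 0.489 times its counts. HTH, an oxidoreductase acting on hydroxy fatty acids, was at −1.40 ± 0.25, and BDG1, a hydrolase-like protein needed for cuticle structure, at −1.04 ± 0.23. A locus with 3.56 times the counts of BDG1 overlaps 38 of its bases on the other strand. For the glycerol-3-phosphate acyltransferases that make cutin monomers, the values were −1.14 ± 0.24 for GPAT6, −0.99 ± 0.15 for GPAT4 and −0.69 ± 0.17 for GPAT8. LACS2, the acyl-CoA synthetase of cutin, had the smallest change, at −0.66 ± 0.19. GPAT4 and GPAT8 act together in stems, and no stretch of 100 bases of either, or of any other member, occurs elsewhere in the genome.

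**Figure D2:**
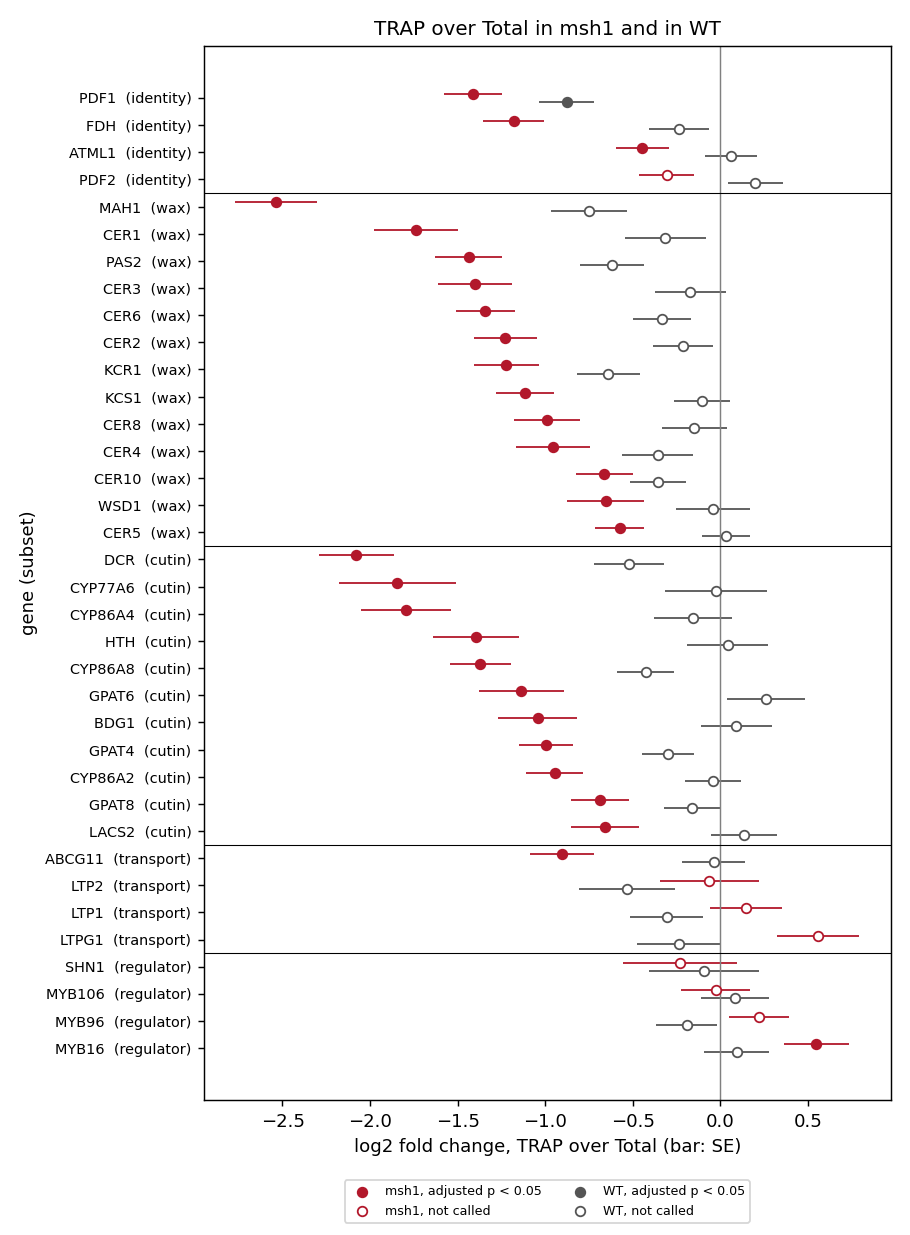
Log2 fold change of TRAP over Total for each gene in msh1 (red) and in WT (grey), with bars for the SE; filled points passed the test. In msh1 the wax and cutin genes lie between −2.54 and −0.58, and in WT they lie between −0.75 and 0.26, all unfilled.

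Of the 4 transport genes, ABCG11 fell, with 80.9 and 70.2 CPM (msh1 TRAP), 154 and 211 CPM (WT TRAP), 129.8 and 153 CPM (msh1 Total) and 200.2 and 174 CPM (WT Total), and it was at −0.90 ± 0.18 in msh1 TRAP against msh1 Total (edgeR adjusted p = 0.00429). A locus on the other strand overlaps 596 bases of ABCG11 with 0.214 times its counts. LTPG1 (AT1G27950), a lipid transfer protein anchored to the plasma membrane that takes part in wax export, stood at 114 and 179.7 CPM (msh1 TRAP), 67.0 and 108 CPM (WT TRAP), 103 and 97.5 CPM (msh1 Total) and 111 and 95.3 CPM (WT Total). The 2 msh1 TRAP libraries were the highest of the 8 for LTPG1, and differed from each other. LTP1 (AT2G38540), a secreted lipid transfer protein and by far the most abundant member per transcript length, had 724 and 1059.6 CPM (msh1 TRAP), 475 and 635 CPM (WT TRAP), 807 and 806 CPM (msh1 Total) and 740.3 and 634 CPM (WT Total). Against msh1 Total, LTPG1 was at 0.56 ± 0.24 (edgeR adjusted p = 0.1), LTP1 at 0.15 ± 0.21 (edgeR adjusted p = 0.644) and LTP2 at −0.06 ± 0.28 (edgeR adjusted p = 0.894), and none of them passed.

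Of the regulators, MYB16 (AT5G15310), a MIXTA-like activator of cuticle genes, had 26.4 and 27.1 CPM (msh1 TRAP), 21.9 and 16.9 CPM (WT TRAP), 20.6 and 16.0 CPM (msh1 Total) and 18.8 and 17.5 CPM (WT Total). Both msh1 TRAP libraries lay above all others, and MYB16 rose against msh1 Total at 0.55 ± 0.18 (edgeR adjusted p = 0.0442). Its paralogue MYB106 was at −0.03 ± 0.20, but an antisense locus over 1229 of its bases held 1.04 times as many counts, so its value is uncertain. MYB96, the regulator with the highest level per transcript length over all libraries, had 29.2 and 31.1 CPM (msh1 TRAP), 21.3 and 24.4 CPM (WT TRAP), 29.1 and 22.7 CPM (msh1 Total) and 24.1 and 28.2 CPM (WT Total), and was at 0.22 ± 0.17 against msh1 Total. SHN1, an AP2-domain activator of cutin and wax genes, was at −0.23 ± 0.32, from 22 to 62 counts per library. Between the TRAP groups, MYB106 was at −0.17 ± 0.20, MYB96 at 0.40 ± 0.18, SHN1 at −0.15 ± 0.34 and LTP2 at −0.01 ± 0.29. In msh1 Total against WT Total they were at −0.06 ± 0.19, −0.02 ± 0.17, −0.01 ± 0.30 and −0.48 ± 0.27 in that order, and none of these 4 genes passed in any of the 5 comparisons.

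Of the 29 calls in msh1 TRAP against msh1 Total, 21 held in all 8 fits that left out 1 library. The other 8 ended in at least 1 of them. ABCG11 and GPAT8 ended without msh1 Total 2 (−0.78 and −0.57), and CER5 and CER10 without msh1 Total 1 (−0.61 and −0.71) or msh1 Total 2 (−0.54 and −0.62). LACS2 ended without msh1 TRAP 2 (−0.59), msh1 Total 1 (−0.75) or msh1 Total 2 (−0.57). For WSD1 this happened when any of msh1 TRAP 2 (−0.46), WT TRAP 1 (−0.66), WT TRAP 2 (−0.60) and the msh1 Total libraries (−0.69 without 1, −0.62 without 2) was left out. For ATML1 it happened with msh1 TRAP 2 (−0.38), WT TRAP 2 (−0.39) or a library of msh1 Total (−0.50 without 1, −0.39 without 2) or WT Total (−0.45 without 1, −0.44 without 2) left out. A fit of only the 2 groups compared, or DESeq2, also ended the calls of ATML1 (−0.45 and −0.42), WSD1 (−0.66 and −0.63) and MYB16 (0.54 and 0.58), RLE scaling ended ATML1 (−0.42), upper-quartile scaling MYB16 (0.51), and a removed length trend ended CER5 (−0.37), WSD1 (−0.54) and LACS2 (−0.42). The rise of MYB16 was lost with msh1 TRAP 2 (0.52), either msh1 Total library (0.74 without 1, 0.37 without 2) or either WT Total library (0.55 each) left out.

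In the wild type, nearly all members missed the threshold in the same comparison. In WT TRAP against WT Total, 1 of 36 members was called, PDF1, where 1.67% of all genes tested were lower and 3.41% higher, 5.07% in all. The median of the members was −0.17 and that of all genes −0.06. The log2 fold change was negative for 27 of 36 members, and for 11963 of all 21202 genes. At an unadjusted edgeR p under 0.05 there were 7 members, all lower. Of all genes there were 4303, of which 2226 were lower. The members' median moved to −0.38 without WT TRAP 2, −0.015 without WT TRAP 1 and −0.11 without WT Total 1. The wax genes lay between −0.75 (MAH1, SE 0.22, edgeR adjusted p = 0.0688) and 0.03 (CER5), and the cutin genes between −0.52 (DCR, SE 0.20) and 0.26 (GPAT6, SE 0.22). With MAH1, the wax genes KCR1 and PAS2 were nearest to the threshold, at −0.64 ± 0.18 (edgeR adjusted p = 0.0642) and −0.62 ± 0.18 (edgeR adjusted p = 0.0727). The PDF1 call ended without WT TRAP 1 (−0.74), WT Total 1 (−0.85) or WT Total 2 (−0.91). The number of members called fell without any 1 of these 3 libraries. It rose without msh1 TRAP 1 or without msh1 TRAP 2, which are in the same fit, and the cause of that rise was not tested. WT TRAP 1 lay below WT TRAP 2 for all members except CER5, CYP86A8 and MYB16.

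Between genotypes, msh1 TRAP was compared with WT TRAP, which asks how RNA on tagged ribosomes differed with the label msh1. Here 28 of 36 genes were lower in msh1 TRAP and 2 higher, where 20.8% of all genes were lower and 20.8% higher, 41.6% in all, and the median of the members was −0.89 against −0.02 for all genes. This comparison shares the msh1 TRAP libraries with the one above, so the counts are not independent of each other. All 13 wax and all 11 cutin genes were lower, with PDF2, ATML1, FDH and ABCG11. CYP77A6 had the largest change, at −2.32 ± 0.34 (edgeR adjusted p = 0.000251), then MAH1 at −2.15 ± 0.23 (edgeR adjusted p = 5e-05) and DCR at −1.96 ± 0.22 (edgeR adjusted p = 5.99e-05). FDH was at −1.02 ± 0.18, ATML1 at −0.69 ± 0.15 and PDF2 at −0.54 ± 0.16, whereas PDF1, low in both TRAP groups, was at −0.45 ± 0.17 and did not pass (edgeR adjusted p = 0.0522). The 2 genes higher in msh1 TRAP were LTPG1, at 0.75 ± 0.24 (edgeR adjusted p = 0.0241), and LTP1, at 0.68 ± 0.21 (edgeR adjusted p = 0.0192). The 4 regulators lay between −0.17 and 0.47, and none passed.

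Of these 30 calls, 21 held with each library left out in turn. Both lipid transfer calls ended without msh1 TRAP 2 (LTPG1 0.34, LTP1 0.33) or WT TRAP 1 (0.45 and 0.49), and with a trend on transcript length removed, when they came to 0.18 and 0.09. Removing it also turned ATML1 to 0.031 and PDF2 to 0.025 and ended the calls of WSD1 (−0.56), CER8 (−0.42), LACS2 (−0.46) and GPAT8 (−0.33). A fit of only the TRAP libraries ended PDF2 (−0.55), CER10 (−0.51), GPAT8 (−0.48) and LTP1 (0.69), and DESeq2 ended GPAT8 (−0.47). Without WT TRAP 2, the calls of PDF2 (−0.40), CER4 (−0.58), KCR1 (−0.42), CER10 (−0.32), WSD1 (−0.55), LACS2 (−0.51) and GPAT8 (−0.36) ended. CER10 (−0.44), WSD1 (−0.57) and GPAT8 (−0.37) also ended without msh1 TRAP 2. The GPAT8 call was lost as well with WT TRAP 1 (−0.55) or any single Total library (−0.47 each) left out.

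**Figure D3:**
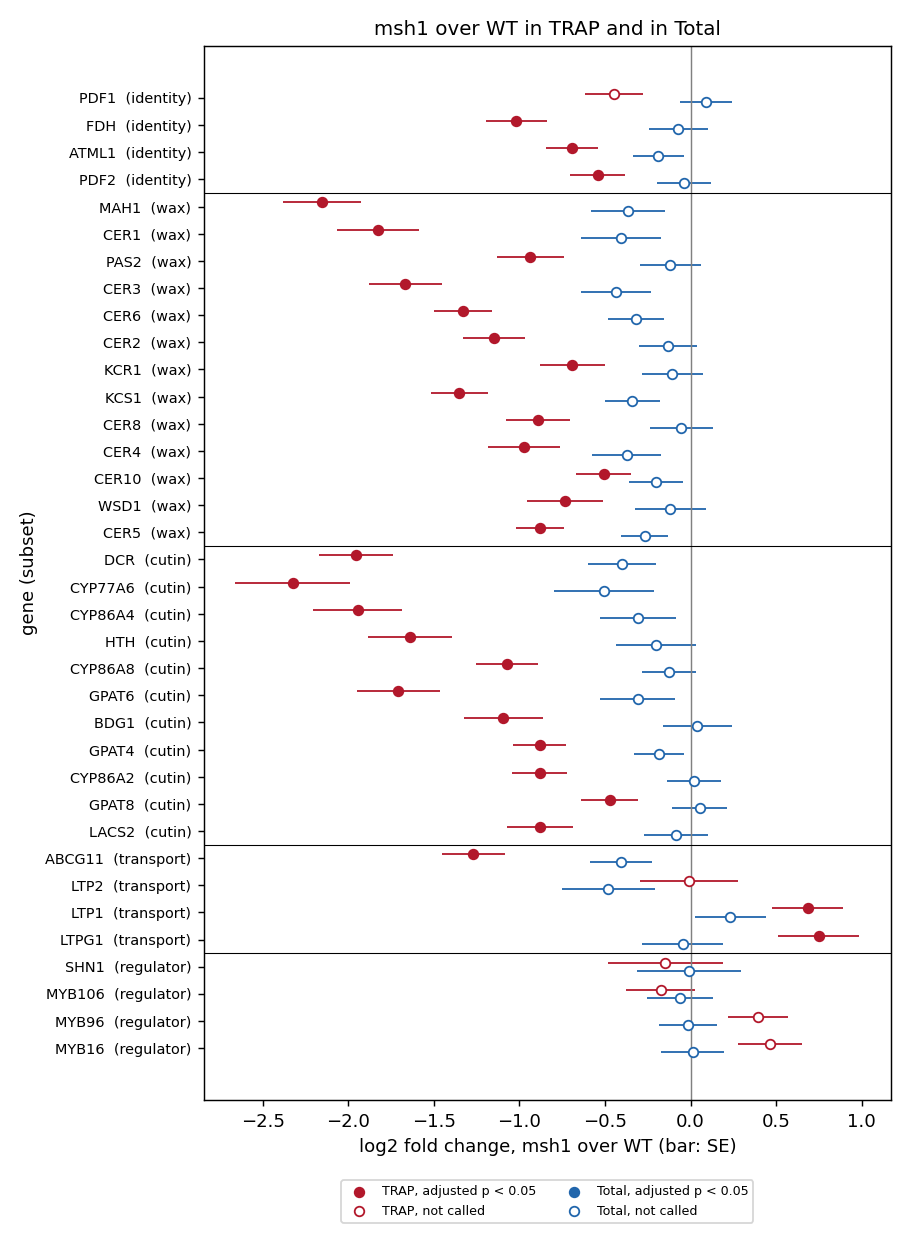
Log2 fold change of msh1 over WT for each gene in TRAP (red) and in Total (blue), with bars for the SE; filled points passed the test. The blue points lie between −0.50 and 0.23 and none is filled, while the red wax and cutin points lie between −2.32 and −0.47.

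In whole stem RNA no gene of the list passed the test between genotypes. In msh1 Total against WT Total, edgeR called 0 of 36 genes, where 3.07% of all genes were lower and 0.821% higher, 3.89% in all. At an unadjusted edgeR p under 0.05 there was 1 member, ABCG11, at −0.41 ± 0.18 (edgeR adjusted p = 0.275), and DESeq2 also called 0. Of all 21202 genes, 3530 had such a p, of which 2184 were lower. The log2 fold change was negative for 30 of 36 members, and for 10655 of all genes. All 13 wax genes had a negative log2 fold change, between −0.44 (CER3, SE 0.20, edgeR adjusted p = 0.31) and −0.05 (CER8, SE 0.18), and their median was −0.27. The cutin genes lay between −0.50 (CYP77A6, SE 0.29) and 0.05 (GPAT8, SE 0.16), and the identity genes between −0.19 and 0.09. A fit of only these 4 libraries called 7 members lower, where it called 7.96% of all genes lower and 4.88% higher, and 1 member was called without msh1 TRAP 1 or without msh1 TRAP 2. A decrease in msh1 Total was not shown to be absent.

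Whether the msh1 effect differed between TRAP and Total was tested as an interaction, the log2 fold change of msh1 over WT in TRAP minus that in Total. It was negative and called for 18 of 36 genes and positive for 0, where 6.61% of all genes were called lower and 9.01% higher, 15.6% in all. These were 9 of 11 cutin genes, 7 of 13 wax genes, FDH and ABCG11. CYP77A6 had the largest, at −1.82 ± 0.44 (edgeR adjusted p = 0.0182), then MAH1 at −1.79 ± 0.31 (edgeR adjusted p = 0.00445), CYP86A4 at −1.64 ± 0.34 (edgeR adjusted p = 0.00943) and DCR at −1.56 ± 0.29 (edgeR adjusted p = 0.00614). ATML1, PDF2 and PDF1 were at −0.50, −0.51 and −0.54, and LTPG1, LTP1 and LTP2 at 0.79, 0.45 and 0.47, none of which passed. With no filter on low counts, 20 members were called negative and 1 positive, where 6.93% of all genes were lower and 8.89% higher. The count depended on single libraries. It fell with msh1 TRAP 2, WT TRAP 2 or any single Total library left out, as did the count over all genes. It rose without WT TRAP 1, and without msh1 TRAP 1, where some calls were positive. Over the fits with 1 library left out, the members' median lay between −0.92 (without WT TRAP 1) and −0.61 (without WT TRAP 2), beside −0.81 in the main fit. CYP86A4, DCR and MAH1 kept the call in all 8 such fits. With the length trend removed, 12 members were called, where 2.48% of all genes were lower, and the calls of FDH (−0.74), CER1 (−0.91), CER8 (−0.42), ABCG11 (−0.41), CYP86A2 (−0.71), CYP86A8 (−0.63) and GPAT4 (−0.61) ended.

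**Figure D4:**
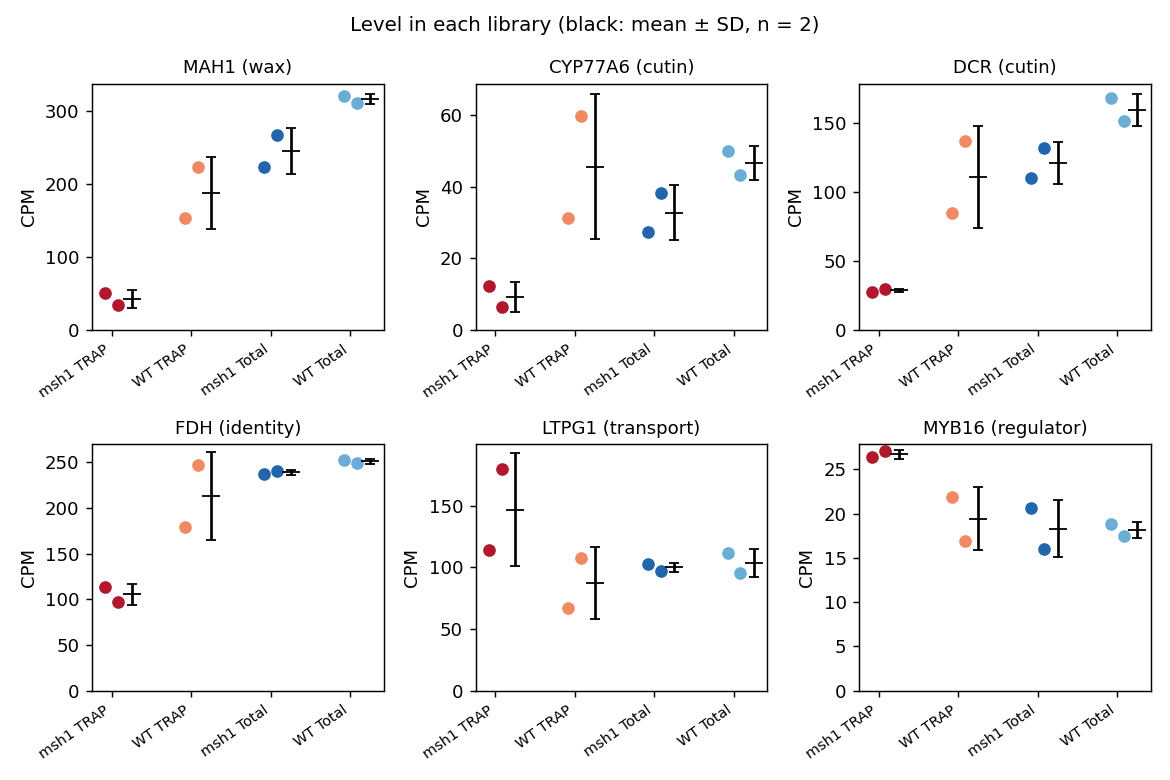
CPM of 6 genes in each library (coloured points) with the mean ± SD of each group (black, n = 2). In msh1 TRAP, MAH1, CYP77A6, DCR and FDH are below every other library, whereas LTPG1 (114 and 180 CPM) and MYB16 (26.4 and 27.1 CPM) are above.

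Further genes of the pathway were listed by locus. Their counts stand beside 12.1% of all genes lower and 14.1% higher in msh1 TRAP against msh1 Total. Against WT TRAP, 20.8% of all genes were lower and 20.8% higher. Of 13 other genes of epidermal identity and patterning, 4 fell in msh1 TRAP against msh1 Total and 0 rose, at a median of −0.55. ACR4, a receptor-like kinase of the outer cell layer, had 6.37 and 5.30 CPM (msh1 TRAP), 14.4 and 16.2 CPM (WT TRAP), 17.8 and 18.1 CPM (msh1 Total) and 19.6 and 16.9 CPM (WT Total), at −1.62 ± 0.20 (edgeR adjusted p = 0.000321). DEK1, a membrane calpain needed to form the epidermis, was at −1.004 ± 0.20, and GL2, a homeodomain factor of hair cell patterning, at −0.88 ± 0.26. Between the TRAP groups 10 of these 13 were lower in msh1 TRAP and 0 higher, at a median of −1.004. In WT TRAP against WT Total, 2 of the 13 rose, ANL2 at 0.64 ± 0.14 and ALE2 at 1.58 ± 0.20, and 0 fell. Of all genes, 1.67% were lower and 3.41% higher there. In msh1 Total against WT Total, 2 of the 13 fell, GL2 at −1.14 ± 0.22 (edgeR adjusted p = 0.0113) and ALE1 at −3.05 ± 0.70 (edgeR adjusted p = 0.0296), and 0 rose. Of all genes, 3.07% were lower and 0.821% higher between the Total groups. ALE1 was low throughout, with 0.28 and 0.47 CPM (msh1 Total) against 4.47 and 2.14 CPM (WT Total).

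Of 18 other wax genes, 11 fell and 2 rose in msh1 TRAP against msh1 Total, with a median of −0.68. This list holds ABCG transporter, lipid transfer and regulator genes beside synthesis genes. KCS5, the closest relative of CER6, had 3.31 and 4.83 CPM (msh1 TRAP), 9.75 and 13.2 CPM (WT TRAP), 15.2 and 15.4 CPM (msh1 Total) and 13.6 and 16.3 CPM (WT Total), at −1.90 ± 0.25 (edgeR adjusted p = 0.000432), and KCS9 was at −0.91 ± 0.14. DEWAX, a transcription factor that represses wax genes, went the other way, with 243 and 282 CPM (msh1 TRAP), 103 and 91.2 CPM (WT TRAP), 137 and 95.9 CPM (msh1 Total) and 81.0 and 85.1 CPM (WT Total). It was highest in both msh1 TRAP libraries, at 1.17 ± 0.18 against msh1 Total (edgeR adjusted p = 0.00107) and 1.44 ± 0.18 against WT TRAP (edgeR adjusted p = 0.000121). The second that rose was LTPG2, the relative of LTPG1, at 0.46 ± 0.15. Of 9 other cutin genes tested, 5 fell and 0 rose, at a median of −0.98, led by the cytochromes P450 CYP77B1 (−2.77 ± 0.30) and CYP86A7 (−2.09 ± 0.23) and the cutin synthase-like gene CUS2 (−1.73 ± 0.23). The listed gene SHN2 did not pass the filter. In msh1 Total against WT Total, 1 of the 18 other wax genes fell, KCS2 at −1.03 ± 0.25 (edgeR adjusted p = 0.0396). EdgeR called 0 of the 9 other cutin genes, with 3 at an unadjusted p under 0.05. Of all genes, 3.07% were called lower and 0.821% higher there, and 3530 of 21202 had an unadjusted edgeR p under 0.05. Between the TRAP groups, 11 other wax genes were lower in msh1 TRAP and 2 higher, and 7 of 9 other cutin genes lower and 0 higher.

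Markers of several other tissues were called in the same comparisons. Of all genes, 12.1% were lower and 14.1% higher in msh1 TRAP against msh1 Total. Against WT TRAP, 20.8% were lower and 20.8% higher. In msh1 Total against WT Total, 3.07% were lower and 0.821% higher. Seed marker genes, 17 by list with HSD1 at 0 counts in all libraries, summed to 64.3 and 48.3 CPM (msh1 TRAP), 976 and 2110.4 CPM (WT TRAP), 123 and 307 CPM (msh1 Total) and 2612 and 2184 CPM (WT Total). All 14 tested were lower in msh1 Total than in WT Total, a comparison in which 0 of 36 members were called, and all 14 were lower in msh1 TRAP than in WT TRAP. In msh1 TRAP against msh1 Total 9 of 14 fell. Guard cell markers summed to 326 and 385 CPM (msh1 TRAP), 609 and 813 CPM (WT TRAP), 1112 and 977 CPM (msh1 Total) and 959 and 903 CPM (WT Total). Of these 7 markers, 5 fell in msh1 TRAP against msh1 Total and 4 were lower in msh1 TRAP than in WT TRAP, and TGG1 made up most of the sum.

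Xylem and fibre markers summed to 678 and 637 CPM (msh1 TRAP), 1503 and 1824 CPM (WT TRAP), 779.7 and 965 CPM (msh1 Total) and 1277 and 1310.1 CPM (WT Total), with 3 lower and 1 higher of 9 in msh1 TRAP against msh1 Total and 6 lower of 9 against WT TRAP. In msh1 Total against WT Total, edgeR called 0 of these 9, with 6 lower at an unadjusted p under 0.05 (median −0.55). Photosynthesis markers gave 0 calls of 9 in msh1 TRAP against msh1 Total with edgeR, 2 of 9 at an unadjusted p under 0.05, and 3 lower and 2 higher of 9 against WT TRAP. Phloem markers gave 3 lower and 1 higher of 7 against msh1 Total, and 3 lower and 2 higher against WT TRAP. Of all genes, 26.2% were called against msh1 Total, 41.6% against WT TRAP and 3.89% between the Total groups. At an unadjusted edgeR p under 0.05 there were 8350 of 21202 against msh1 Total and 3530 between the Total groups. Floral organ markers gave 0 of 10 against msh1 Total, with 1 at an unadjusted p under 0.05, but 6 of 10 were lower in msh1 TRAP than in WT TRAP (median −0.72) and 5 of 10 lower in msh1 Total than in WT Total (median −0.76). Suberin genes, which build a related polyester of roots and seed coats, gave 3 lower of 9 in msh1 TRAP against msh1 Total, 7 lower of 9 against WT TRAP, and 4 lower of 9 in msh1 Total against WT Total. The part of any of these tissues in the results above was not tested.

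**Figure D5:**
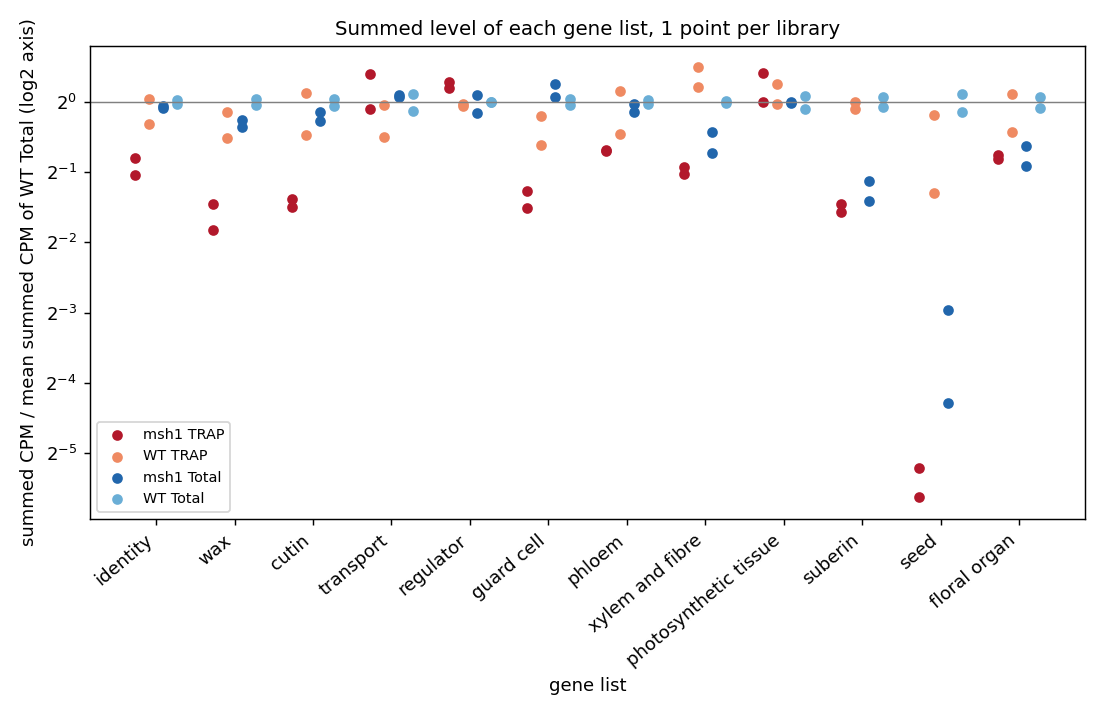
Summed CPM of each gene list in each library, divided by the mean of WT Total, on a log2 axis. The identity, wax, cutin, guard cell, phloem, xylem and fibre, suberin and seed lists are lowest in the 2 msh1 TRAP libraries. The xylem and fibre, suberin, seed and floral organ lists are also low in msh1 Total.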

How the data were processed

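For every library the authors deposited raw, unnormalized counts by locus. Per the submitters' processing notes, the genome build was TAIR10 and DESeq2 was used; the aligner and counter are not stated. Per the labels' protocols, the kit was TruSeq RNA v2, which keeps no strand, with paired-end reads. The 5 lines of each library that name no gene were set aside. They held 38.5 to 41.68% of listed counts as no feature and 12.35 to 18.95% as not unique. Counts listed as ambiguous made up 0.16 to 0.31% in the TRAP libraries and 0.58 to 1.12% in the Total libraries. Their part in the TRAP against Total values of members that overlap another locus was not tested.

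Genes were filtered with filterByExpr, scaled by TMM and tested in 1 fit of all 8 libraries and 4 groups with edgeR 4.0.16 (R 4.3.3), a quasi-likelihood F test with 4 residual degrees of freedom. Benjamini-Hochberg adjustment ran over 21202 genes, at a threshold of 0.05. SE is the size of the log2 fold change over the square root of F. P-values measure the spread between libraries that the labels call biological replicates. Levels per length use the union of annotated exons (TAIR10.1). The script was tested on simulated data. Alternatives were DESeq2 1.42.0, other scalings and filters, fits of the groups compared, a replicate block, a trend on transcript length removed, and each library left out. Members and lists were chosen with earlier results of these data known. Values are given per library for the identity genes and, in each subset, for the 3 genes with the largest change among those called and the gene with the highest level per length; from other lists, mainly up to 3 genes with the smallest adjusted p are named, while ANL2, ALE1, ALE2, KCS2 and LTPG2 were named after their values were seen.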

Additional observations from a re-analysis of the deposited data

Results flagged for a closer look

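For 18 of 36 genes the difference between msh1 and WT itself differed between TRAP and Total, by the interaction test (edgeR adjusted p under 0.05). All 18 were in the negative direction, where 6.61% of all genes were called lower and 9.01% higher, 15.6% in all. On the log2 scale the cutin genes had −1.82 (CYP77A6), −1.64 (CYP86A4), −1.56 (DCR), −1.44 (HTH), −1.40 (GPAT6), −1.13 (BDG1), −0.94 (CYP86A8), −0.90 (CYP86A2) and −0.70 (GPAT4). The wax genes had −1.79 (MAH1), −1.42 (CER1), −1.23 (CER3), −1.01 (CER6), −1.01 (CER2), −1.01 (KCS1) and −0.84 (CER8). FDH had −0.95 and ABCG11 −0.86. CYP86A4, DCR and MAH1 held in all 8 fits with 1 library left out, and GPAT4, CER8 and ABCG11 in 2 of 8. HTH ran between −1.83 and −0.90 in those fits. With the length trend removed, ABCG11 came to −0.41 (edgeR adjusted p = 0.278), CER8 to −0.42 (edgeR adjusted p = 0.271) and FDH to −0.74 (edgeR adjusted p = 0.0568), and the calls of CER1, CYP86A2, CYP86A8 and GPAT4 also ended.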

How the results depend on the processing

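Members had 22 or more counts in every library, and each group had 2 libraries. Among member calls, no direction turned under any setting except that with the length trend removed ATML1 and PDF2 came to 0.031 and 0.025 in msh1 TRAP against WT TRAP. A change of sign between settings was not counted for values that passed in neither fit. In msh1 TRAP against msh1 Total, members called numbered 21 to 31 with 1 library left out, and genes called 2218 to 7114, or 3548 with only the groups compared. In msh1 TRAP against WT TRAP these were 23 to 30 members and 5835 to 9517 genes. In WT TRAP against WT Total, members called were 0 to 4 with 1 library left out, 3 with DESeq2, 5 with no filter and 4 with only the groups compared, and genes called were 167 to 2310, 2011 with no filter and 1871 with only the groups compared. In msh1 Total against WT Total, members called were 0 to 1 with 1 library left out and 7 with only the groups compared, and genes called were 219 to 1650, 1770 with no filter and 2708 with only the groups compared. For the interaction, members called were 3 to 26 and genes called 1009 to 5575, with 1786 genes when the length trend was removed. With the length trend removed, 24 members were lower and 1 higher in msh1 TRAP against msh1 Total, at a median of −0.89. Of all genes, 9.47% were lower and 12.9% higher there. Between the TRAP groups 23 members were lower and 0 higher, at a median of −0.72, beside 14.3% and 17.6% of all genes. The median exon length was 2025 bases for the members and 1724.5 for all genes tested. The cause of these shifts was not tested.

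The numbers 1 and 2 of the replicates are not stated to pair libraries. With a replicate block, members called were 27 in msh1 TRAP against msh1 Total, 29 between TRAP groups, 1 in WT TRAP against WT Total, 0 between Total groups and 15 for the interaction, beside 4871, 8285, 742, 656 and 2600 genes. The block ended ATML1 and WSD1 in the first, GPAT8 in the second, and CER8, ABCG11 and GPAT4 in the interaction. Same-numbered TRAP and Total libraries deviated in opposite directions (r = −0.198 in msh1 and −0.243 in WT over 21202 genes), and with the numbers of the Total libraries exchanged, a choice made after seeing the data, 29, 30, 1, 0 and 20 members were called, beside 5945, 9105, 1265, 1110 and 3756 genes.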
